A study of Prunus avium with 18 samples.

Results

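Flower buds of the sweet cherry (Prunus avium) cultivar 'Fertard', a late flowering cultivar with high chilling requirements, were compared between October 17, when dormancy was being established, and December 8, the first date that the study places in endodormancy. Endodormancy is the state in which a bud does not grow even under warm conditions, and it ends after prolonged cold. The comparison used 6 of the 18 RNA-seq libraries of the series, 3 for each date, and all 48133 genes of the count files, of which 26248 had enough counts to be tested. The 3 libraries of a date came from independent flower buds of 3 different trees, without any treatment. The study does not state whether the same trees served at both dates. The 4 later dates (January 3, January 15, February 12 and March 12) are used here to follow the genes afterwards. The deposited labels of the December libraries carry another date, day 17 of December 2012, and these libraries are taken here as those of December 8 of 2017.

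Besides the vascular tissue, buds depend on 2 routes for water and sugars. In the symplasmic route, molecules pass from cell to cell through plasmodesmata, whose opening is narrowed by callose, a β-1,3-glucan made by callose synthases and degraded by β-1,3-glucanases. In the apoplastic route, molecules move through cell walls made of cellulose, hemicelluloses and pectins, and enter cells through membrane proteins such as the aquaporins, which carry water. The study places the aquaporins in a transcellular class of the symplasmic genes. The study listed 585 different genes for these routes and for the vascular tissue, and their names are used here as listed. No other gene is given a name or a function here. The study's gene ontology annotation of the whole 'Regina' genome was not used, and no list of flower bud markers was checked.

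The libraries held 10701003 to 15727904 counts, and 27319 to 28868 of the 48133 genes had at least 1 count. Replicate 2 of December 8 stood apart from its 2 replicates: relative to its degrees of freedom, the chi-square of its counts against theirs was 7.74 and 9.06, whereas it was 2.23 between replicates 1 and 3 and 1.85 to 2.76 among the October 17 libraries. Levels are given in CPM, counts scaled to a library of a fixed size after TMM normalization, and a gene was called when the adjusted p of edgeR's quasi-likelihood test (Benjamini-Hochberg over all 26248 genes) was under 0.05 and the fold change over 2. Log2 fold changes are December 8 over October 17, so negative values are lower in December, and ± after a mean gives the standard deviation of 3 libraries. CPM is not corrected for gene length, so that levels are compared between dates and not between genes.

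Between the 2 dates, many more genes fell than rose. On December 8, 3057 genes (11.6% of those tested) were lower and 915 (3.49%) were higher, and without replicate 2 of December 8 the counts were 3092 and 967. Beyond an 8-fold change there were 446 genes lower and 129 higher, and beyond a 32-fold change 76 and 45. The median log2 fold change of all genes tested was -0.04. In bulk samples such as these buds, fewer cells of a type and less RNA per cell cannot be told apart.

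The excess of lower over higher genes was largest among genes under 10 CPM, smaller from 10 to 100 CPM and nearly absent above. Among the 3771 genes with a mean under 1 CPM over all 18 libraries, 17.4% were lower on December 8 and 4.19% higher, and among the 8260 genes from 1 to 10 CPM the shares were 17.7% and 4.39%. From 10 to 100 CPM, 6.95% of 11991 genes were lower and 2.48% higher. Among the 2226 genes at 100 CPM or more, 4.94% were lower and 4.36% higher, so that at high levels both directions were nearly equally frequent. The same order of shares was found with DESeq2 size factors, with upper quartile normalization and with the DESeq2 test.

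**Figure D1:**
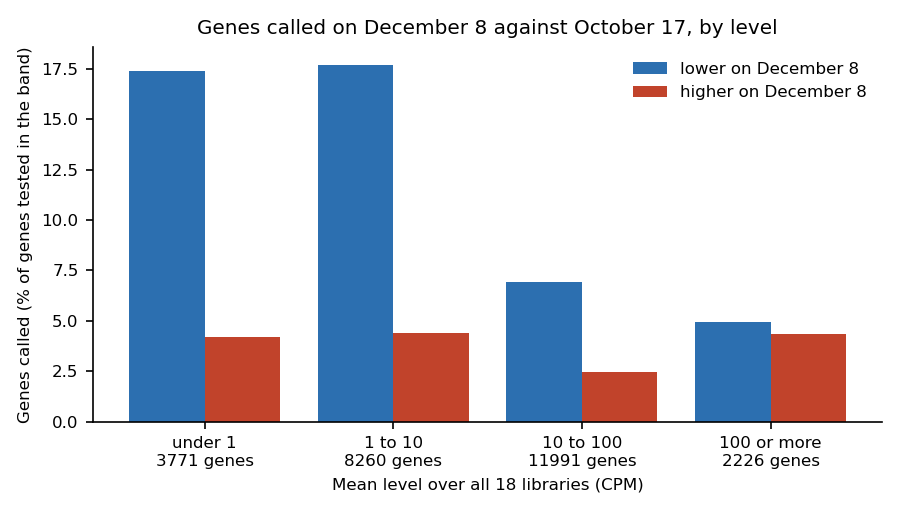
Percentage of tested genes called lower (blue) and higher (red) on December 8 than on October 17, in 4 bands of the mean level over all 18 libraries in CPM. The lower genes made up 17.4% and 17.7% of the lowest bands and 4.94% of the highest band, whereas the higher genes made up 2.48% to 4.39% of each band.

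Some called genes were read at only 1 of the 2 dates. Of the 3057 genes called lower, 54 had no count in any December library, and of the 915 called higher, 31 had none in any October library. Some of these held few reads at the other date, where 0 counts do not show that a gene was off. Outside the transport list, the largest falls among well counted genes were those of PAV04g0188031, with 146, 204 and 171 counts in the October libraries and 0 in all 3 December libraries, and of PAV06g0264591, with 76, 109 and 110 counts against 0. Taking a floor of 3 counts over the 3 December libraries, these levels were at least 154-fold and at least 87.0-fold lower in December. Both genes were read again in all 3 libraries of January 3, at means of 0.652 and 0.127 CPM, stayed low to February 12 and were at 6.01 ± 2.97 and 2.2 ± 1.02 CPM on March 12.

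The largest rises among well counted genes were those of PAV08g0369681, from 0 in all 3 October libraries to 108, 85 and 70 counts, at least 99.1-fold with the same floor, and of PAV05g0232171. PAV05g0232171 held 9, 4 and 12 counts in October and 4855, 4401 and 3396 in December, with no overlap between the dates (log2 fold change 9.15, standard error 0.302). Its mean then reached 857 CPM on January 3 and was back at 2.24 CPM on March 12. The gene was thus high at each of the 4 dates between those of October and March. From bud break under warm conditions, the study dates dormancy release of this season after March 12, so the level was low again before that release. The names used here do not cover these 4 genes.

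Within the transport list, 316 of the 585 genes were tested, and 135 had no count in any of the 18 libraries. Of the tested genes, 51 (16.1%) fell and 16 (5.06%) rose, against 11.6% and 3.49% of all genes, with a median log2 fold change of -0.27. The remaining 249 were not called. Without replicate 2 of December 8, 54 were lower and 16 higher.

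**Figure D2:**
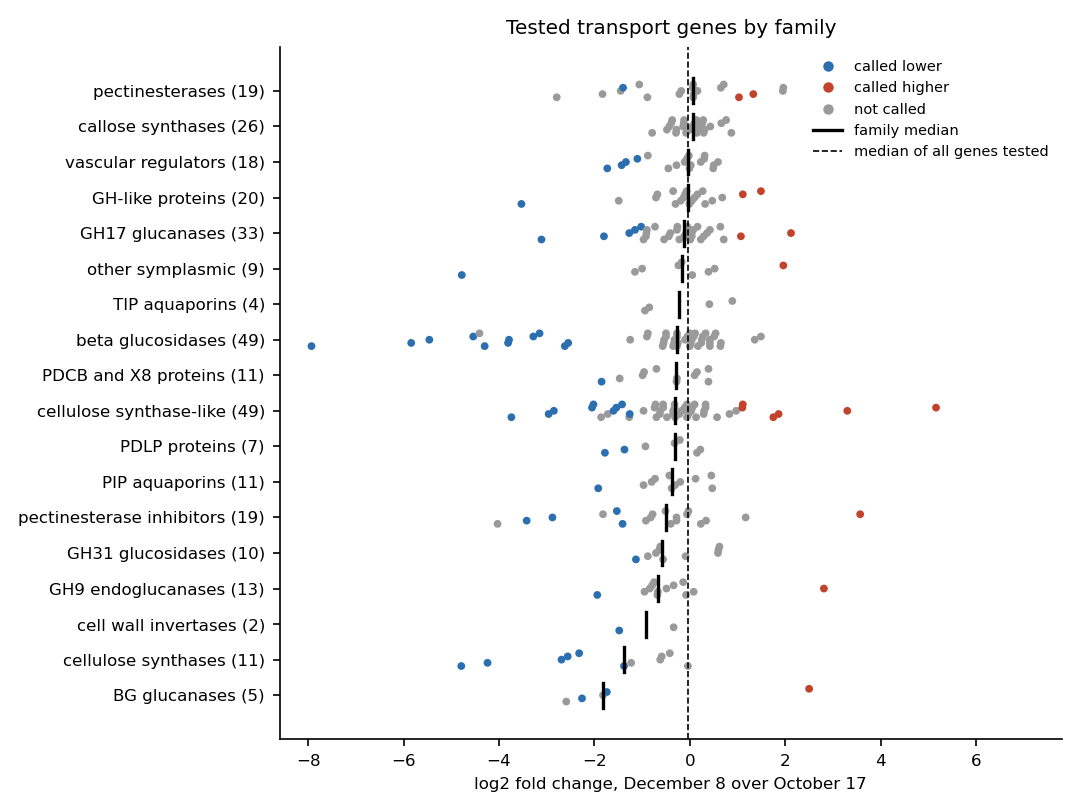
Log2 fold change of December 8 over October 17 for each tested gene of the transport list, by family (number tested in brackets), with genes called lower in blue, higher in red and not called in grey. The short black lines are family medians, from -1.82 in the BG glucanases to 0.07 in the callose synthases and pectinesterases, and the dashed line is the median of all genes tested, -0.04.

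The β-glucosidases, which release glucose from plant glucosides and here belong to glycosyl hydrolase family 1, held the largest fall of the list. Of 147 listed, 49 were tested, and 11 of these fell (22.4%, against 11.6% of all genes). None rose (against 3.49% of all genes), 38 were not called, and the family median was -0.27. DESeq2 likewise called 11 lower and 0 higher. Beta glucosidase 36_17 was at 9.48, 9.41 and 8.05 CPM in October and at 0, 0.0920 and 0 in December, where a single read remained. The pooled ratio was 329 (95% exact counting interval 58.7 to 13000; adjusted p = 6.69e-08, edgeR). Beta glucosidase 6_2, the gene with the next identifier, was at 9.48, 7.84 and 7.92 CPM in October and at 0.0654, 0.368 and 0 in December (5 counts, adjusted p = 1.70e-07). In both genes replicate 2 held most of the few December reads, and the fitted log2 fold changes moved from -7.93 to -9.91 and from -5.84 to -7.46 without that library, and for beta glucosidase 36_17 to -7.32 without replicate 1 of December 8.

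These neighbours belonged to a run of listed genes with close identifiers that all fell. In the 19 identifiers from PAV07g0336481 to PAV07g0336661, a stretch chosen after the values were seen, 7 genes were listed, 6 of them could be tested and all 6 fell, while none of the 5 other tested genes was called. Beta glucosidase 36_18 was at 20.5, 17.1 and 19.8 CPM in October and at 0.523, 1.56 and 0.942 in December (log2 fold change -4.30, standard error 0.563, adjusted p = 7.66e-06). Beta glucosidase 36_19 was at 16.8, 16 and 14.6 CPM and then at 0.981, 1.56 and 0.847 (log2 fold change -3.81, standard error 0.496, adjusted p = 7.18e-06). Every October library of both genes was above every December library. Beta glucosidase 2_8 had 61 counts over the October libraries and 2 over those of December, a ratio of 27 (counting interval 7.15 to 228). The gene listed as cytochrome P450 (PAV07g0336511), which 2 of the 3 annotations in the study's list describe as a β-glucosidase of family 1, was at 10.0, 11.1 and 8.80 CPM and then at 0.393, 0.460 and 0.188 (log2 fold change -4.78, adjusted p = 6.10e-06). Near-identical copies can share reads, and the part of such sharing in these values was not tested.

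After December the 6 genes of this stretch took different courses. Beta glucosidase 36_17 and 6_2 did not come back, with mean levels of at most 0.369 and 0.0647 CPM at the 4 later dates. Beta glucosidase 36_18 was at 12.8 CPM on January 3. It then passed its October mean of 19.1, with 67.1 CPM on January 15 and 41.8 on February 12, and was at 6.70 on March 12. Beta glucosidase 2_8 went the same way, from 1.65 CPM on January 3 to 7.34 on January 15 and 0.894 on March 12. Beta glucosidase 36_19 and the listed cytochrome P450 had their highest means on February 12, at 27 and 12 CPM. Against December 8, January 3 was higher for beta glucosidase 36_18 (log2 fold change 3.72, adjusted p = 8.22e-05), 36_19 (2.68, 0.000646), 2_8 (4.71, 0.000507) and the cytochrome P450 (2.46, 0.0143) in edgeR's test. Both comparisons use the December 8 libraries.

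**Figure D3:**
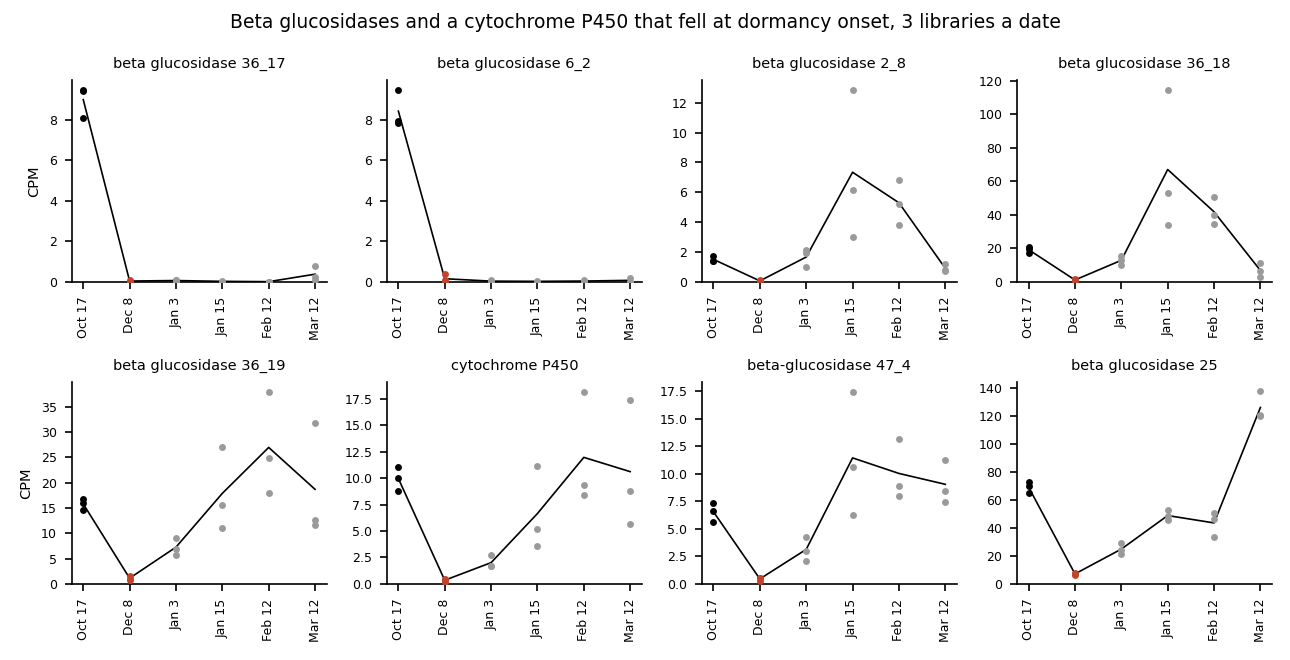
CPM of 8 genes that fell between October 17 (black) and December 8 (red), with the 4 later dates in grey; points are libraries and the line joins the means of 3. Beta glucosidase 36_17 and 6_2 stay near 0 up to March 12, whereas beta glucosidase 36_18 climbs from 1.01 CPM on December 8 to 67.1 on January 15 and beta glucosidase 25 to 126 on March 12.

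The study's list annotates 3 genes as coniferin β-glucosidases, which act on the glucoside of a lignin precursor, and all 3 were tested and fell, against 11.6% of all genes. These genes were grouped after their values were seen. The first, beta-glucosidase 47_4, was at 7.36, 6.65 and 5.62 CPM in October and at 0.523, 0.552 and 0.282 in December (log2 fold change -3.79, standard error 0.465, adjusted p = 3.58e-06). Beta glucosidase 2_15 went from 2.30 ± 0.321 to 0.387 ± 0.234 CPM (log2 fold change -2.55, adjusted p = 0.000496). The third, beta-glucosidase 47_3, had 23 counts in October and 3 in December, and its call was lost in some fits without 1 library.

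The other β-glucosidases that fell are not annotated in that way. Beta-glucosidase 47_5, a neighbour of 47_4, had 17 counts in October and none in December, at least 5.01-fold lower, and was at 0.0212 CPM on January 3 and 0.647 on January 15. Beta glucosidase 25, with 2869 counts in October and 261 in December, was at 73.0, 70.0 and 65.0 CPM and then at 6.61, 7.18 and 7.72 (log2 fold change -3.28, standard error 0.149, adjusted p = 2.17e-11). Its mean was 24.9 CPM on January 3 (log2 fold change over December 8 1.80, adjusted p = 1.37e-07) and 126 on March 12. Beta glucosidase 40_4 was at 3.85 ± 0.232 and then 0.404 ± 0.216 CPM (log2 fold change -3.15, and -3.74 without replicate 1 of December 8) and stayed between 0.354 and 0.717 CPM at the later dates.

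The cellulose synthases, which make the cellulose of the cell wall, were lower in December in all 11 of the tested members by the sign of the estimate, and 6 of the 11 fell, against 11.6% of all genes. Their median log2 fold change was -1.38, and none rose. Summed over the family, CPM went from 1800, 1880 and 1811 in the October libraries to 1034, 836 and 1071 in those of December. CELLULOSE SYNTHASE A2_1, part of that sum, was at 772, 788 and 784 CPM and then at 302, 278 and 321 (log2 fold change -1.38, standard error 0.0770, adjusted p = 1.97e-10). In Arabidopsis, CESA2 belongs to the enzymes of the primary wall.

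The 3 genes named after cellulose synthase A4, a subunit that in Arabidopsis makes the secondary wall of xylem, fell further. CELLULOSE SYNTHASE A4_2 was at 32.4, 41.7 and 42.2 CPM in October and at 7.2, 3.59 and 7.16 in December (log2 fold change -2.69, standard error 0.230, adjusted p = 4.91e-08). CELLULOSE SYNTHASE A4_3 was at 40.5, 47.4 and 47.5 CPM and then at 11.3, 3.87 and 11.8 (log2 fold change -2.32, standard error 0.281, adjusted p = 3.16e-06). The dates did not overlap in either gene, and replicate 2 was the lowest December library in both. Without it, the log2 fold changes were -2.43 and -1.97. CELLULOSE SYNTHASE A4_1 had 74 counts over the October libraries and 2 over those of December, both in replicate 1, a ratio of 32.7 (95% exact counting interval 8.74 to 275), and its fitted log2 fold change of -4.79 became -7.51 without that library.

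A pair of neighbouring genes behaved in the same way. CELLULOSE SYNTHASE 5_1 went from 6.64 ± 1.74 to 1.10 ± 0.352 CPM (log2 fold change -2.56, adjusted p = 2.63e-05) and CELLULOSE SYNTHASE-like_3_1 from 51.2 ± 3.71 to 7.04 ± 2.29 CPM (log2 fold change -2.85, adjusted p = 4.38e-08). CELLULOSE SYNTHASE-like_5_2 was at 22.5, 33.2 and 31.7 CPM in October and at 3.08, 0.920 and 2.35 in December (log2 fold change -3.74, standard error 0.323, adjusted p = 5.31e-08). Replicate 2 was again the lowest December library of all 3 genes, and without it their log2 fold changes were -2.35, -2.62 and -3.41. These levels were lower still at the next 3 dates, with means on February 12 of 0.596 CPM for A4_2, 0.543 for A4_3, 0.378 for CELLULOSE SYNTHASE-like_3_1 and 0.447 for CELLULOSE SYNTHASE-like_5_2, and on March 12 they were at 8.99, 8.97, 15.3 and 8.41 CPM, below October.

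**Figure D4:**
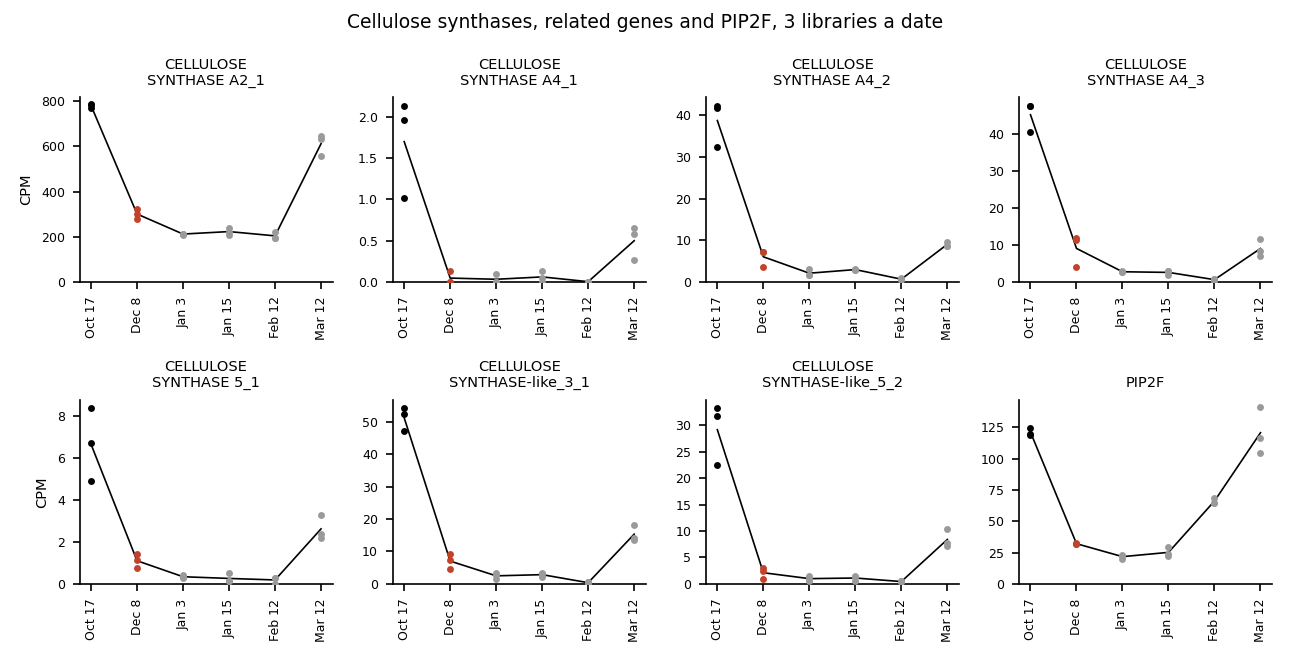
CPM of 4 cellulose synthases of the A2 and A4 type, 3 related genes and the aquaporin PIP2F at the 6 dates (October 17 black, December 8 red, later dates grey); points are libraries and lines join the means of 3. A4_2 and A4_3 fall from 38.8 and 45.1 CPM to 5.98 and 8.98, decline further to February 12 and regain only 8.99 and 8.97 CPM on March 12, whereas PIP2F is back at 121 CPM.

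Xylem cells lay down the secondary wall, and the cambium is the layer that produces xylem and phloem. Of the study's genes, 8 were taken here as markers of xylem and secondary wall and 5 as markers of the cambium. The summed level of the 8 was 82.4 to 101.1 CPM in the October libraries and 18.1 to 27 CPM in those of December. Of the 7 tested, 3 were lower, all of them of the A4 type. These 3 hold most of that sum, so its fall mainly restates theirs. TED-type cellulose synthase had 11 counts in October and 4 in December. Of the transcription factors among the 8 markers, myb domain protein 83 had no count at either date. Myb domain protein 46 had 12 counts in October and 15 in December, too few to show a change in either direction. The log2 fold change of myb domain protein 85 was -0.02, with a 95% interval of -1.59 to 1.54 that leaves room for more than 2-fold either way, and that of the NAC-domain gene PAV02g0092171 was -0.01 (-0.32 to 0.30). The 5 cambium markers summed to 117 to 125 CPM in October and 50.9 to 55.5 CPM in December, and 2 of the 5 fell, WUSCHEL related homeobox 14 and CLAVATA3/ESR-RELATED 42, which hold most of that sum. The other 3 were not called: WUSCHEL related homeobox 4 had 188 counts in October and 250 in December, CLAVATA3/ESR-RELATED 41 had 22 and 23, and CLAVATA3/ESR-RELATED 44 had 107 and 96. Of all genes tested, 11.6% were lower and 3.49% higher. The part of a smaller amount of vascular tissue in the fall of the cellulose synthases was not tested.

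Of the 18 tested vascular regulators, 4 fell (22.2%, against 11.6% of all genes), none rose (against 3.49%) and the median was -0.04. WUSCHEL related homeobox 14, a transcription factor that in Arabidopsis promotes cambium growth, was at 90.6, 91.4 and 87.6 CPM in October and at 34.5, 31.6 and 34.1 in December (log2 fold change -1.43, standard error 0.101, adjusted p = 4.30e-09). CLAVATA3/ESR-RELATED 42, a small signalling peptide of the family that controls the cambium, was at 25.5, 24.7 and 22.5 CPM and then at 10.5, 10.1 and 7.82 (log2 fold change -1.34, standard error 0.126, adjusted p = 1.45e-07). Both were clear of overlap. The Arabidopsis annotation in the study's list gives WUSCHEL related homeobox 4 and CLAVATA3/ESR-RELATED 44 as the nearest genes of these, while the cherry genes listed under those names were not called, with log2 fold changes of 0.59 (95% interval 0.13 to 1.04) and 0.02 (-0.41 to 0.46). Both genes stayed below October afterwards: from January 3 to March 12 the means of WUSCHEL related homeobox 14 lay between 42.3 and 46.2 CPM and those of CLAVATA3/ESR-RELATED 42 between 7.39 and 11.6 CPM. The gene for myb domain protein 4, in Arabidopsis a repressor of the phenylpropanoid pathway, went from 66.2, 72.7 and 64.4 CPM to 29.96, 36.1 and 28.8 (log2 fold change -1.10, standard error 0.101).

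The cellulose synthase-like genes, which make other wall polysaccharides, moved in both directions, with a median of -0.32. Of 49 tested, 9 fell (18.4%), 6 rose (12.2%) and 34 were not called, against 11.6% lower and 3.49% higher of all genes. Neighbours went opposite ways among the E1 genes. CELLULOSE SYNTHASE-like E1_4 was at 6.62, 6.15 and 6.23 CPM in October and at 22.6, 20.6 and 20.5 in December (log2 fold change 1.75, adjusted p = 8.88e-06, standard error 0.232), and E1_5, the gene with the preceding identifier, went from 5.06, 4.96 and 2.98 CPM to 0.981, 1.38 and 0.753 (log2 fold change -2.05, standard error 0.367, adjusted p = 0.000200). E1_4 went on to 74.5 CPM on February 12 and was at 10.3 CPM on March 12. For E1_3 and E1_7 in the same stretch the log2 fold changes were -0.56 and -0.32, and neither was called.

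The largest rises of this family came from low levels. CELLULOSE SYNTHASE-like G2_2 was at 0.736, 0.251 and 0.338 CPM in October and at 3.66, 4.60 and 4.24 in December (log2 fold change 3.30, standard error 0.755, adjusted p = 0.00178), although one of the annotations in the study's list describes it as a protein kinase. CELLULOSE SYNTHASE-like B4_1 had no count in October and 12 in December, at least 4.52-fold higher, and its neighbour B4_2 went from 31.7, 30.6 and 29.1 CPM to 60.7, 70.4 and 66.8 (log2 fold change 1.11, standard error 0.134). CELLULOSE SYNTHASE-like D1_4 was at 0.454 ± 0.113 and then 1.69 ± 0.271 CPM (log2 fold change 1.86, adjusted p = 4.37e-05), and its mean was 0.0768 CPM on January 3, so that December 8 stood out from the dates on either side. The other 6 members that fell were CELLULOSE SYNTHASE-like E1_6, CELLULOSE SYNTHASE-likeD3, CELLULOSE SYNTHASE-like_16, D4_1, G3_3 and G2_3, with log2 fold changes of -2.96, -2.02, -1.60, -1.54, -1.42 and -1.26, and the calls of E1_6 and likeD3 were lost in some fits without 1 library. The Arabidopsis annotation of CELLULOSE SYNTHASE-like_16 is a late embryogenesis abundant protein.

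Callose synthases make the callose that narrows plasmodesmata. None of the 26 tested callose synthases was called by edgeR or by DESeq2, and 7 had an unadjusted p under 0.05 in edgeR. Their log2 fold changes ran from -0.79 to 0.87 with a median of 0.07, so each estimate was under 2-fold. By adjusted p alone, without the fold threshold, 5 of the 26 differed (4 lower and 1 higher), against 43.1% of all genes. The lowest was GSL-like3 (PAV04g0205821), at 61.2, 60.0 and 59.8 CPM in October and 33.2, 35.2 and 36.6 in December (log2 fold change -0.79, standard error 0.0933, adjusted p = 2.40e-06), with no overlap. The other gene of that name, PAV05g0251361, had a log2 fold change of 0.00 (95% interval -0.11 to 0.12). GSL-like1 was at 359, 384 and 376 CPM and then at 461, 451 and 446 (log2 fold change 0.28, adjusted p = 0.0151). The highest estimate, CALS_1B at 0.87 (95% interval 0.07 to 1.66, adjusted p = 0.0633), rested on 4.45 and 4.24 CPM in replicates 1 and 3 of December 8, whereas replicate 2 was at 1.47 CPM, within the October range of 1.42 to 2.57.

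Of the 33 tested GH17 glucanases, the family of the β-1,3-glucanases that can degrade callose, 5 fell (15.2%), 2 rose (6.06%) and 26 were not called, with a median of -0.12. Of all genes, 11.6% were lower and 3.49% higher. Both GH17 genes that rose, GH17_22 and GH-17-like_2, lost their calls in some fits without 1 library, as did GH17_5 and GH17_9 among those that fell. GH17_4 had 62 counts in October and 6 in December (log2 fold change -3.11, adjusted p = 0.000597, standard error 0.626), and the value was -4.11 without replicate 2 and -2.39 without replicate 1 of December 8. GH17_21 was at 17.7, 18.1 and 16.6 CPM and then at 5.82, 8.56 and 7.53 (adjusted p = 1.06e-06, log2 fold change -1.27 ± 0.140 standard error). GH17_25 went from 21.5, 24.4 and 16.6 CPM to 8.63, 10.7 and 8.94 (log2 fold change -1.15, standard error 0.209, adjusted p = 0.000228). The dates did not overlap in either gene. Besides GH17_5, GH17_9 and GH17_25, the study names GH17_3 and GH17_19 among genes that went down gradually around dormancy onset. Between these 2 dates, GH17_3 and GH17_19 had log2 fold changes of 0.29 (95% interval 0.06 to 0.52) and -0.05 (-0.32 to 0.22). Neither was called lower or higher.

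Among the BG glucanases, a group of β-1,3-glucanases of the pathogenesis-related type, 1 of 5 tested genes rose and 2 fell. The shares over all genes were 3.49% and 11.6%. DESeq2 called 1 of the BG genes higher and 3 lower. The lowest estimate was that of BG_3E, a log2 fold change of -2.59 from 0.91 to 0.15 CPM, which edgeR did not call. BG_3C was at 52.8, 47.2 and 61.4 CPM in October and at 272, 382 and 260 in December (log2 fold change 2.50, adjusted p = 2.20e-05, standard error 0.361), and every December library was over 4 times the highest October library. Its mean went on to 622 CPM on January 3 and 1655 CPM on January 15. The highest mean was that of February 12, at 2825 CPM, before 311 CPM on March 12. BG_1A and BG_3B, within the same stretch of identifiers, were lower in December, BG_1A with 34 counts in October and 6 in December (log2 fold change -2.26, adjusted p = 0.00395) and BG_3B at 2.02, 2.76 and 2.64 CPM and then 0.458, 1.10 and 0.753 (log2 fold change -1.74, adjusted p = 0.00308). From January both were above their December level, at 12.6 and 9.34 CPM on February 12.

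Of 18 tested genes for plasmodesmatal PDLP, PDCB and X8 proteins, 3 fell and none rose, against 11.6% and 3.49% of all genes. PDLP proteins are receptor-like proteins of the plasmodesmatal membrane, some of which raise callose in Arabidopsis. Of the 7 tested, PDLP6B and PDLP6A, which have neighbouring identifiers, fell and the other 5 were not called, with a median of -0.32. PDLP6B was at 8.19, 7.53 and 6.36 CPM in October and at 2.42, 1.75 and 2.17 in December (log2 fold change -1.78, adjusted p = 9.59e-06, standard error 0.238), and PDLP6A at 2.76, 2.07 and 1.90 and then at 0.720, 0.460 and 1.41 (log2 fold change -1.37, standard error 0.386, adjusted p = 0.00783). PDLP4, PDLP2, PDLP8, PDLP1 and PDLP7 had log2 fold changes of -0.93, -0.32, -0.21, 0.15 and 0.22. Of the 11 tested PDCB and X8 proteins, which bind callose, with a median of -0.28, Carbohydrate-binding X8_1 fell, from 1.29 ± 0.170 to 0.349 ± 0.148 CPM (log2 fold change -1.85, adjusted p = 0.000407). PDCB3A was at 341, 346 and 291 CPM and then at 189, 221 and 192, without overlap but under 2-fold (log2 fold change -0.70, adjusted p = 0.00199, standard error 0.163), and PDCB5A, PDCB5B, PDCB3 and PDCB3C were at -0.27, -0.28, 0.15 and -0.96, none of them called.

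Aquaporins of the plasma membrane (PIP) were lower in December as a sum, at 2530, 2456 and 2308 CPM in October and 1550, 1725 and 1575 in December, but 1 of the 11 tested passed both thresholds, and the median log2 fold change was -0.38. PIP2F was at 124, 120 and 119 CPM and then at 31.7, 31.9 and 32.6 (log2 fold change -1.92, standard error 0.105, adjusted p = 1.63e-10) without overlap, and its mean was back at 121 CPM on March 12. By adjusted p alone, 6 of the 11 PIP genes were lower and 1 was higher, against 43.1% of all genes in either direction. PIP1B1 was at 31.9, 27.9 and 25.6 CPM in October and 13.3, 15.3 and 15.1 in December, just under 2-fold (log2 fold change -0.97, adjusted p = 1.31e-05), and it crossed the threshold without replicate 3 of October 17 (-1.04) or replicate 2 of December 8 (-1.0). PIP2D2, at 1171, 1159 and 1100 CPM and then 640, 743 and 691, and PIP1B2, at 396, 368 and 333 CPM and then 200, 246 and 187, had log2 fold changes of -0.73 and -0.80. PIP1C and PIP3B were at -0.43 and -0.38. The one gene in the other direction was PIP1B3, at 132, 121 and 114 CPM and then 167, 162 and 174 (log2 fold change 0.45, adjusted p = 0.00101). PIP2A1, PIP2A2, PIP2D1 and PIP1E had adjusted p values over the threshold.

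Aquaporins of the vacuole membrane (TIP) held no called gene among 4 tested, with edgeR or DESeq2, and 2 had an unadjusted p under 0.05 in edgeR. Those 2 went in opposite directions. GAMMA-TIP1 was at 334, 311 and 281 CPM in October and at 150, 180 and 185 in December (log2 fold change -0.85, adjusted p = 0.00468, standard error 0.221), and DELTA-TIP was at 125, 107 and 102 CPM and then at 194, 217 and 207 (log2 fold change 0.89, standard error 0.204, adjusted p = 0.00182). Neither overlapped between the dates, and neither reached 2-fold. The December level of DELTA-TIP was the highest of the 6 dates, and on January 3 the gene was at 59.7 CPM. TIP3 and TIP-like, at or under 1.13 CPM in every library of the 2 dates, had log2 fold changes of 0.41 and -0.94.

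Other wall enzymes moved in both directions. GH9_17, an endoglucanase of the family that cuts cellulose chains, was at 11.5, 12.9 and 14 CPM in October and at 98.7, 64.8 and 107 in December (log2 fold change 2.81, standard error 0.246, adjusted p = 6.21e-08), each December library being over 4 times any October library. GH9_1B, of the same family, went the other way, from 15.3, 14.2 and 13.7 CPM to 3.53, 4.69 and 3.01 (log2 fold change -1.94, adjusted p = 1.92e-06, standard error 0.225), and the 11 other tested GH9 genes were not called, the family median being -0.67. In each direction 7.69% of the 13 tested GH9 genes were called, against 11.6% lower and 3.49% higher of all genes. Of the 20 tested GH-like proteins, GH-like_34 and GH-like_32, which have neighbouring identifiers, rose (10.0%), 1 fell (5.0%), and the median was -0.04. GH-like_34 was at 20.9, 19.3 and 16 CPM and then at 50.8, 58.4 and 48.8 (log2 fold change 1.49, adjusted p = 3.21e-07, standard error 0.149), and GH-like_32 at 1.38 ± 0.180 and then 3.02 ± 0.249 (log2 fold change 1.11, adjusted p = 0.00105). GH-like_21, annotated as a cellulase, had 30 counts in October and 2 in December, a ratio of 13.3 (95% exact counting interval 3.37 to 115).

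Pectinesterases remove methyl groups from pectin, and pectinesterase inhibitors block them. Of the 19 tested pectinesterases, 2 rose (10.5%, against 3.49% of all genes), 1 fell (5.26%, against 11.6%) and 16 were not called. The family median was 0.07. PECTINESTERASE-like_24, which fell, lost its call in the DESeq2 test and in some fits without 1 library. The risers PECTINESTERASE-like_5 and PECTINESTERASE-like_23 have neighbouring identifiers. They went from 14.7, 12.8 and 15.0 CPM to 36.6, 29.3 and 41 (log2 fold change 1.33, adjusted p = 6.48e-07, standard error 0.141) and from 21.1, 20.3 and 21.6 CPM to 42.5, 41.5 and 44.5 (log2 fold change 1.03, standard error 0.156, adjusted p = 3.73e-05). Both were highest on December 8 among the 6 dates, and on January 15 their means were 13.9 and 17.0 CPM.

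Of the 19 tested pectinesterase inhibitors, 4 fell (21.1%, against 11.6% of all genes), 1 rose (5.26%, against 3.49%) and 14 were not called. The family median was -0.51. Among the 4, PECTIN_INHIB_like_8 lost its call in the DESeq2 test and without replicate 2 or 3 of December 8. PECTIN_INHIB_like_14 was at 142, 146 and 124 CPM in October and at 50.4, 46.1 and 58.8 in December (log2 fold change -1.41, standard error 0.0972, adjusted p = 3.08e-09). PECTIN_INHIB_like_17 was at 3.68, 2.76 and 2.64 CPM and then at 0.262, 0.0920 and 0.471 (log2 fold change -3.42, adjusted p = 0.000173), and PECTIN_INHIB_6 at 4.60, 3.14 and 4.40 and then 0.785, 0.460 and 0.282 (log2 fold change -2.88, adjusted p = 1.60e-06). All 3 were clear of overlap. The gene that rose, PECTIN_INHIB_4 (PAV02g0131731), was at 1.01, 0.188 and 0.406 CPM and then at 4.38, 8.93 and 4.71 (log2 fold change 3.57, adjusted p = 5.29e-06, standard error 0.453), and the value was 4.30 without replicate 1 of October 17. Cell wall invertase 4_1, which splits sucrose outside the cell and was 1 of only 2 tested invertases, fell from 10.0, 8.03 and 12.7 CPM to 3.86, 3.31 and 3.77 (adjusted p = 2.83e-05, log2 fold change -1.48 with a standard error of 0.219), with 13.5 CPM on March 12.

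**Figure D5:**
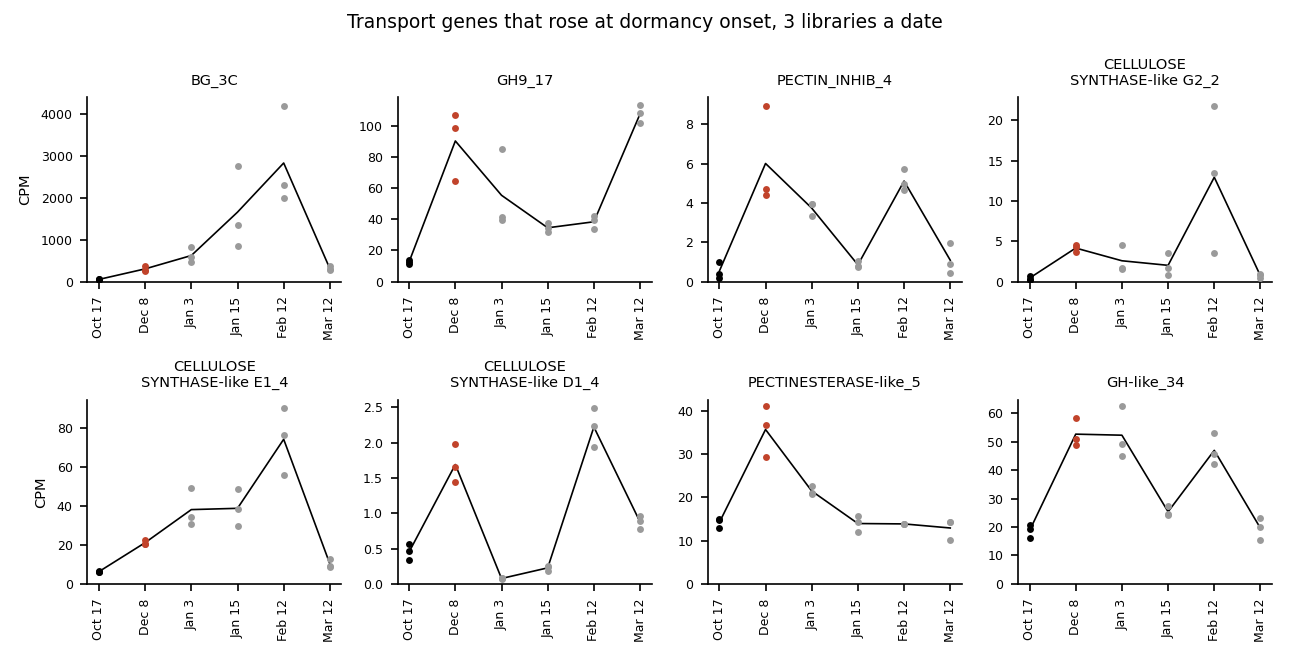
CPM of 8 transport genes that rose between October 17 (black) and December 8 (red), with the later dates in grey; points are libraries and lines join the means of 3. BG_3C and CELLULOSE SYNTHASE-like E1_4 continue upwards to 2825 and 74.5 CPM on February 12, whereas PECTINESTERASE-like_5 is highest on December 8 at 35.6 CPM.

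Of the 67 called transport genes, 14 lost their call when 1 library was left out, and their values rest on few reads or lie close to the fold threshold. GH17_22 was at 16.2, 8.72 and 22 CPM in October and at 32.2, 41.7 and 24.2 in December (log2 fold change 1.07, adjusted p = 0.0288), and its value was 1.10 or 0.77 without replicate 1 or 2 of October 17 and 1.08 or 0.87 without replicate 1 or 2 of December 8. Its mean was 285 CPM on January 3 and 1223 CPM on February 12. GH-17-like_2, with 7 counts in October and 28 in December, had a log2 fold change of 2.12 and lost its call without replicate 1 (1.91) or 2 (1.67) of October 17 or replicate 1 (2.09) or 3 (2.05) of December 8, and the value was 3.19 without replicate 3 of October 17. GH17_9 was at 1.10, 0.816 and 0.745 CPM and then at 0.262, 0.184 and 0.282 (log2 fold change -1.80), and lost its call without replicate 1 (-1.86) or 2 (-1.66) of December 8. GH17_5 was at 82.2, 84.3 and 78.7 CPM and then at 37.1, 48.4 and 35.4 without overlap, a change of almost exactly 2-fold (log2 fold change -1.02, standard error 0.154), and it fell short of the threshold without replicate 2 of October 17 (-1.0) and replicate 1 (-0.96) or 3 (-0.94) of December 8.

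The same was found for genes with fewer counts. CELLULOSE SYNTHASE 6_2, which other annotations in the study's list describe as a receptor-like protein, had 7 counts in October and 0 in December, at least 2.06-fold lower, and lost its call without any 1 of the 6 libraries, at adjusted p values of 0.0635 to 0.117. CELLULOSE SYNTHASE-like E1_6 had 30 counts and then 3, a ratio of 8.84 (counting interval 2.75 to 45.3), and its fitted log2 fold change of -2.96 was -2.0 without replicate 2 of October 17, -2.27, -3.89 and -3.04 without replicates 1, 2 and 3 of December 8. Of these 4 omissions, that of replicate 2 of December 8 left it called. CELLULOSE SYNTHASE-likeD3 (24 counts and then 5, log2 fold change -2.02) lost its call without replicate 3 of October 17 (-1.67) or replicate 1 (-1.98) or 3 (-1.54) of December 8, and was at -2.78 without replicate 2 of December 8. Beta-glucosidase 47_3 (23 counts and then 3, ratio 6.78, counting interval 2.05 to 35.3) lost it without replicate 3 of October 17 (-2.33) or replicate 1 (-1.92) or 3 (-2.70) of December 8, and was at -3.55 without replicate 2. CELLULOSE SYNTHASE-like B6_2 was at 2.70 ± 0.411 and then 5.77 ± 0.520 CPM (log2 fold change 1.10), with 0.97 without replicate 3 of October 17. GH-31_3, an α-glucosidase by its annotation and the called gene among 10 tested GH31 glucosidases, was at 4.53 ± 0.336 and then 2.06 ± 0.431 CPM (log2 fold change -1.13), with -0.97 without replicate 2 of December 8.

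Of the remaining 4, NAC domain containing protein 83, in Arabidopsis a repressor of xylem vessel formation, had 20 counts in October and 5 in December (log2 fold change -1.73, adjusted p = 0.0468). It was -1.76 and -1.24 without replicates 1 and 3 of October 17, and -1.02, -1.94 and -2.50 without replicates 1, 2 and 3 of December 8, and remained called only without that replicate 3 or without replicate 2 of October 17. The Pathogenesis-related thaumatin superfamily protein gene was at 0.460, 0.377 and 0.880 CPM in October and at 2.75, 1.38 and 2.54 in December (log2 fold change 1.96), lost its call without replicate 2 of October 17 (1.68) or replicate 1 of December 8 (1.74), and had a mean of 111 CPM on January 15. PECTIN_INHIB_like_8, with 33 counts and then 10 (log2 fold change -1.53), lost its call without replicate 2 (-1.18) or 3 (-1.56) of December 8. PECTINESTERASE-like_24, with 27 counts and then 9 (log2 fold change -1.40), lost it without replicate 1 of October 17 (-0.97) or replicate 1 (-1.23) or 2 (-1.26) of December 8.

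Whether the December state was also the midwinter state was examined with dates that share no library with this comparison. Between January 3 and March 12, 4939 genes (18.8% of those tested) were lower and 2990 (11.4%) higher on January 3. Of the 3057 genes that fell at onset, 1367 (44.7%) were also lower on January 3 than on March 12, which is 27.7% of that list, and 225 (7.36%) were higher. Of the 915 genes that rose, 387 (42.3%) were also higher on January 3 than on March 12, 12.9% of that list, and 118 (12.9%) were lower. Among the transport genes, 37 of the 51 that fell at onset were lower on January 3 than on March 12, among them PIP2F, beta glucosidase 25, the 3 genes of the A4 type and both PDLP6 genes. Not all of them had stayed at the December level, since beta glucosidase 25 was called higher on January 3 than on December 8. Of the 16 that rose, 7 were higher on January 3 than on March 12, among them BG_3C, PECTIN_INHIB_4 and CELLULOSE SYNTHASE-like E1_4 and G2_2. Against December 8 itself, 13 of the 51 that fell were called higher on January 3 and 8 were called lower. The 16 that rose held 4 called higher and 1 called lower. These last counts use the December 8 libraries of the onset comparison again. The shares of all tested genes called in that step are not given here, so no rate particular to the list is read from them.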

How the data were processed

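Poly(A) RNA of flower buds was sequenced as stranded libraries, and the authors deposited raw read counts per gene, made by trimming with Trimmomatic 0.36, alignment to the 'Regina' sweet cherry genome with STAR and counting with HTSeq (versions of the last 2 not given in the sources used here). The counts were not normalized by the authors. Here, genes were kept that had 3 or more counts per library on average and were at 0 in no more than 75% of the 18 libraries, then scaled by TMM and fitted in 1 edgeR 4.0.16 model (R 4.3.3) with a mean per date and 12 residual degrees of freedom, and the contrast of December 8 minus October 17 was tested with the quasi-likelihood F test. A standard error is the absolute log2 fold change divided by the square root of F, and 95% intervals of log2 fold changes use the t distribution with 12 degrees of freedom. DESeq2 1.42.0, other normalizations, filters and thresholds, a replicate block, the 6 libraries alone and the omission of each library were the alternatives. Tables and figures were made with Python 3.11.15, pandas 2.3.3, scipy 1.17.1 and matplotlib 3.10.9.

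Dates and replicates were taken from the labels, except that the December libraries, labelled day 17 of December 2012, were dated December 8 after the study's text, and equal replicate numbers were not treated as pairs. The 587 entries of the study's candidate list were matched to the files by identifier, 524 exactly and 63 by the trailing number, giving 585 genes in 18 families. Named genes were every called listed gene, with values per library for up to 3 per family and direction, the genes that the study's text ties to onset, all tested callose synthases, PDLP, PDCB, PIP and TIP genes (in part as ranges), and outside the list the 2 largest changes per direction with at least 50 counts in every library of the higher date. Members and lists were chosen with earlier results of these data known. Total counts of 10701003 to 15727904 per library make levels near 1 CPM imprecise. Counting intervals and floors cover counting error only. The reference table of another assembly matched 0 identifiers, so no sequence or position is given.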

Additional observations from a re-analysis of the deposited data

How the results depend on the processing

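The counts of 915 higher and 3057 lower genes stayed within 1.5 times under DESeq2 (923 and 2920), DESeq2 size factors, upper quartile normalization, no filter, filterByExpr, a mean count of at least 10, the 6 libraries alone and the omission of each library (844 to 967 and 2726 to 3092). Without the fold threshold they were 4977 and 6330, and the listed genes 35 and 108. With glmTreat, which tests for more than a 2-fold change, they were 335 and 1349, and the listed genes 8 and 31, so that most called genes could not be shown to exceed 2-fold. The omission of 1 library gave 14 to 16 higher and 44 to 54 lower listed genes, and shares of 44% to 45.4% and 42.7% to 43.5% for the genes shared with January 3 against March 12.

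Replicates of equal number did not deviate together (r = -0.0371, -0.0489 and 0.0438), and with the replicate number as a block 916 genes were higher and 3059 lower. That block ended the call of NAC domain containing protein 83 (log2 fold change -1.72, adjusted p = 0.0629, edgeR) and of no other listed gene.

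Of the 67 called listed genes, 48 were called in all 14 alternatives other than glmTreat and the one without the fold threshold, 5 were untested in at least 1 of them (for low counts) and called in the rest, and 14 were lost in at least 1. With glmTreat 39 of the 67 were called. GH17_5 was lost with no filter and with filterByExpr (both -0.98), under a minimum mean count of 10 (-1.0) and with the 6 libraries alone (-0.97). NAC domain containing protein 83 was lost in the DESeq2 test (-1.76), with no filter and with the 6 libraries alone (both -1.69), PECTINESTERASE-like_24 in the DESeq2 test (-1.43) and with the 6 libraries alone (-1.34), PECTIN_INHIB_like_8 in the DESeq2 test (-1.58) and with no filter (-1.50), and CELLULOSE SYNTHASE 6_2 with no filter and with filterByExpr (both -4.24). GH17_19, not called, went from -0.05 to 0.00 with the 6 libraries alone. The causes were not tested. Low counts limit single genes: a mean count of at least 10 left 11 of the 67 untested, and filterByExpr 6.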

Other observations

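Genes with neighbouring identifiers often fell or rose together. Of 2811 lower genes followed by another tested identifier of the same series, 705 (25.1%) were followed by a lower gene, against 11.8% of all such tested genes that were lower. Of 808 higher genes, 137 (17.0%) were followed by a higher gene, against 3.38%. Opposite neighbours were rarer: 69 (2.45%) of the lower genes were followed by a higher gene. The share of reads held by related copies that could be counted for each other was not tested.

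The called genes also moved the make-up of the libraries. The lower genes took 8.99% to 9.44% of all counts in the October libraries and 2.70% to 3.06% in those of December, and the higher genes 4.22% to 4.32% and 11.4% to 12.7%. The 2 higher genes with the largest gain took 1.97% to 2.04% and 4.45% to 4.76%. The transport list as a whole took 1.42% to 1.47% of the counts in October and 1.12% to 1.14% in December, without overlap. These shares describe the genes that the comparison called and are not independent of it.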
